A study of Mus musculus with 14 samples.

Results

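The 10 mast cell cytokine genes described here are Il3, Il4, Il5, Il6, Il9, Il10, Il13, Csf2, Tnf and Areg. They were chosen by name, as genes for cytokines and growth factors that mast cells are known to make, and all 10 were found among the 55487 genes of the count table. RNA was sequenced from pools of up to 100 mast cells sorted from mouse ears. Resident mast cells of untreated mice gave 5 libraries (1 to 5), those of MC903-treated mice gave 5 (6 to 10), and 4 were labelled as bone marrow mast cells after MC903 treatment (11, 13, 14 and 15). MC903 is calcipotriol, a vitamin D analogue that produces a dermatitis resembling atopic dermatitis when it is put on mouse skin. The protocol names resident and integrin β7-positive mast cells, the latter being a phenotype of mast cell progenitors newly arrived from bone marrow, and the labels do not say how the bone marrow group was sorted. Cells came from both ears, and strain, age, sex and length of treatment are not given in the sources used here. The labels name no animals, so p-values measure only the spread between these libraries, which may be technical in part.

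Mast cells store some tumour necrosis factor in granules and make most other cytokines anew after activation through the high-affinity IgE receptor, the interleukin 33 receptor or other sensors. Calcium signalling through NFAT, together with AP-1 and NF-kappa B, drives transcription of these genes, and many of the messages are short-lived because their 3′ untranslated region (UTR) carries AU-rich repeats of ATTTA that recruit decay factors such as tristetraprolin. In allergic skin, interleukins 4 and 13 act on keratinocytes, B cells and macrophages, tumour necrosis factor and interleukin 6 act on vessels and leukocytes, GM-CSF (Csf2) and interleukin 3 support myeloid cells and mast cells, and amphiregulin (Areg) is a ligand of the EGF receptor.

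Library totals ranged from 13068078 to 31781926 counts. Libraries 7 and 8 of the MC903 resident group and library 15 of the bone marrow group stood apart by the number of genes with a count, 32814 to 35246 against 16025 to 28790 in the other 11. Mast cell genes were high in every library: 12 core genes, among them Kit, Cpa3 and the IgE receptor chains, summed to 90317 to 116731 CPM in untreated resident, 108650 to 164858 CPM in MC903 resident and 109023 to 163519 CPM in bone marrow libraries. CPM are counts relative to the library total after TMM scaling, in units of 1e-06 of that total. Macrophage and dendritic cell genes (15 genes) summed to 67.99 to 428.4 CPM in 13 libraries and to 16214 CPM in library 15. Where a call was lost in the fit without libraries 7, 8 and 15, the adjusted p of that fit is given beside it.

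The mast cell core genes differed between the groups themselves, with 6, 3 and 6 of the 12 called in MC903 resident minus untreated, bone marrow minus MC903 resident and bone marrow minus untreated, where 2.25%, 2.27% and 6.87% of all genes tested were called. Fcer1a, the IgE-binding chain of the receptor, stood at 738.8 ± 222 CPM in untreated resident (SD, n = 5), 5704 ± 1449 in MC903 resident (n = 5) and 3066 ± 811 in bone marrow libraries (n = 4). It rose in both MC903 groups against untreated cells (log2 fold change 2.96 ± 0.232, SE, adjusted p = 7.1e-07, and 2.05, adjusted p = 8.89e-06) and, of the MC903 groups, was lower in that from bone marrow (-0.90, adjusted p = 0.0441, edgeR, lost in 7 alternative fits). The protease genes Tpsb2 and Cma1 were also called higher in both MC903 groups, and Mcpt4, another protease gene, was called higher in MC903 resident (0.75) and lower in bone marrow cells (-0.68) than in untreated cells, with bone marrow cells also below MC903 resident cells (-1.44). The calls of Cma1 in MC903 resident and Mcpt4 in bone marrow cells against untreated cells were each lost in 1 alternative fit. Hdc, the enzyme that makes histamine, fell from 10955 ± 1373 to 5544 ± 861 CPM in MC903 resident cells (-0.98, adjusted p = 0.00333, edgeR). Ms4a2, the receptor's beta chain, was lower than in untreated cells in MC903 resident (-0.84, adjusted p = 0.035, lost in 9 alternative fits; 0.184 without libraries 7, 8 and 15) and bone marrow cells (-1.41, adjusted p = 0.000421, edgeR). Cpa3 was called higher in bone marrow than in untreated cells, lost in 9 alternative fits, and Tpsab1 was the 1 core gene called higher in bone marrow cells when the MC903 groups were compared. DESeq2 called 6, 4 and 8 core genes and limma 7, 2 and 6. The part of these differences in the cytokine values was not tested.

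The AU-rich repeats are shown first because they are the sequences through which many cytokine messages are marked for decay. For each of 5 members chosen as examples, the 30 bases of 3′ UTR with the most ATTTA pentamers (ATTTA in capitals, sense strand, GENCODE M21 transcripts on GRCm38) lay at chr17:35199679-35199708 (minus strand) for Tnf, chr5:30019677-30019706 (plus) for Il6, chr11:53631733-53631762 (minus) for Il13, chr11:54247329-54247358 (minus) for Csf2 and chr5:91148369-91148398 (plus) for Areg.
Tnf: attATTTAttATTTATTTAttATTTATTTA
Il6: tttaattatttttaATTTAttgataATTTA
Il13: atcttATTTAttatggttgtgtgttATTTA
Csf2: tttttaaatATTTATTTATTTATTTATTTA
Areg: ataATTTATTTAatATTTAagtgttATTTA

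For each gene the transcript with the longest 3′ UTR was used, so shorter forms of a message can hold fewer repeats. All 10 members had at least 1 ATTTA in that 3′ UTR, from 1 in Il3 to 10 in Il6, as did 70.13% of the 15150 tested genes with a usable 3′ UTR. Their median density was 10.19 per kb, against 1.339 per kb over those tested genes. The nonamer TTATTTATT, a binding sequence of tristetraprolin, occurred 5 times in Tnf, 4 times in Csf2 and once each in Il13 and Areg, so in 4 of the 10 members and in 8.304% of those tested genes. The members' 3′ UTRs were also short, with a median of 511.5 bases against 1176. A match of letters is a description of the sequence and not of a bound protein.

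Compared per length of the gene, Il6, Tnf, Il4 and Il13 together held 91.0% ± 6.74 of the members' summed level in untreated resident (SD, n = 5), 97.1% ± 2.42 in MC903 resident (n = 5) and 93.8% ± 9.74 in bone marrow libraries (n = 4). The per-length level used here is in TPM (counts divided by gene length, scaled to the same total in every library). In untreated resident cells Tnf was at 645 ± 150 and Il6 at 590 ± 224 TPM (SD, n = 5), followed by Il4 at 348 ± 164, Csf2 at 118 ± 74.6, Il13 at 88.6 ± 24.9 and Il3 at 41.0 ± 42.3. The ranges of each of these genes overlapped with that of the next. Areg, Il10, Il9 and Il5 each averaged under 3 TPM.

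The order was different after MC903. In MC903 resident cells Il4 came first at 288 ± 46.0 TPM (SD, n = 5), then Il6 at 190 ± 140, Tnf at 125 ± 26.8 and Il13 at 50.8 ± 6.52. Il4 (lowest library 225.6) lay above Tnf (highest 155.6) without overlap, and Tnf lay above Il13 (highest 59.13), whereas Il6 spread across both neighbours. Il3 (8.83 ± 15.5) and Csf2 (6.09 ± 4.85) were lower and did not differ from each other beyond their spread.

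In the bone marrow group Il6 led at 348 ± 85.5 TPM (SD, n = 4), followed by Il4 at 264 ± 38.1, with overlapping ranges. Tnf stood at 160 ± 50.9 and Il13 at 39.6 ± 15.9. The means of Il3 (27.0 ± 54.1) and Csf2 (25.5 ± 44.0) rested mostly on library 14, and that of Areg (14.3 ± 21.4) on libraries 13 and 14.

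Summed over the 10 genes, the per-length level was 1833 ± 256 TPM in untreated resident cells (1503 to 2178), 672 ± 104 in MC903 resident cells (560.2 to 827.5) and 882 ± 205 in bone marrow cells (713.6 to 1180). The untreated libraries did not overlap with either MC903 group. TPM were not scaled by TMM, unlike CPM. The 12 mast cell core genes summed to medians of 94579, 146454 and 147206 CPM in untreated, MC903 resident and bone marrow libraries. Il4 averaged 348, 288 and 264 TPM in these groups but 204.4, 226.2 and 210.0 CPM. The part of scaling in the lower sums was not tested. Il6 and Tnf together made up 67.2% ± 9.20 of the sum in untreated, 45.3% ± 14.04 in MC903 resident and 58.0% ± 7.51 in bone marrow libraries. Il4 and Il13 together made up 23.8% ± 9.19, 51.8% ± 13.1 and 35.8% ± 9.47. These shares of a sum move together by construction, and no test was made on them.

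**Figure D1:**
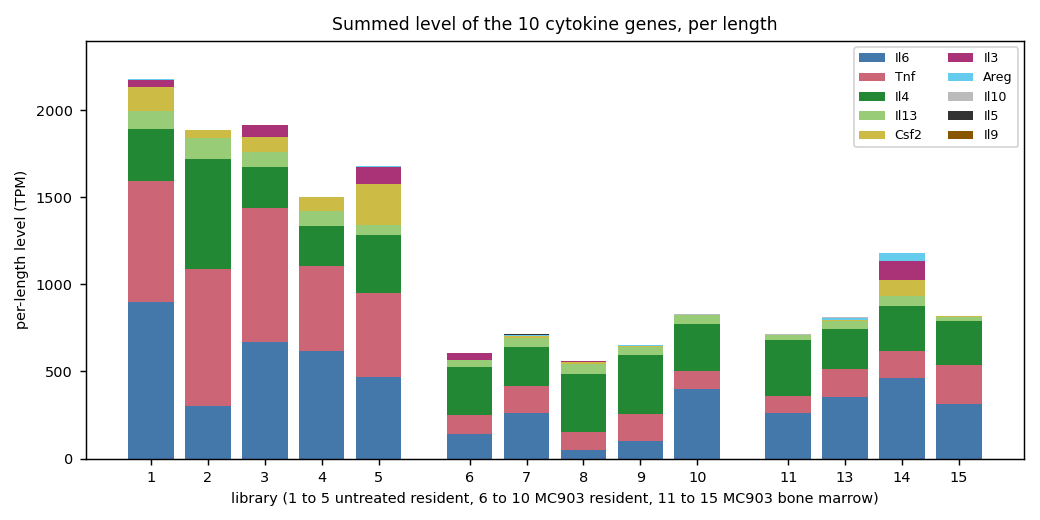
Summed per-length level (TPM without TMM scaling, linear axis from 0) of the 10 cytokine genes in each of the 14 libraries, with each gene's part stacked in its own colour. The 5 untreated resident libraries reach 1503 to 2178 TPM, above all 9 libraries from MC903-treated mice (560.2 to 1180), and the Tnf part is the one that is smaller in every MC903 library.

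Tnf, which encodes the inflammatory cytokine tumour necrosis factor, was the member that changed between groups in the test across all genes. The gene lies on the minus strand at chr17:35199381-35202007. Its RefSeq promoter window (250 bases before to 50 after the start, GRCm38.p6) spans chr17:35201958-35202257. It is shown 5′ to 3′ with matches to the motifs searched in capitals, among them 3 to the NF-kappa B pattern (GGG and CC with any 5 bases between), which mark 2 stretches because 1 of them reads as a match on both strands, 3 to the NFAT core GGAAA (or TTTCC on the other strand) and a TATA box.
Tnf: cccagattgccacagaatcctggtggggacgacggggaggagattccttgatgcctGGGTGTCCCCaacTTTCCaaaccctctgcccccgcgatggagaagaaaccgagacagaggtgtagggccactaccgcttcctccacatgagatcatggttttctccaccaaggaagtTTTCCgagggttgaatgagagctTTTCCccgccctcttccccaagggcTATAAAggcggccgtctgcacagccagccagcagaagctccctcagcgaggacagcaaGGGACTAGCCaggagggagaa

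In untreated resident libraries 1 to 5, Tnf stood at 496.9, 637.9, 566.5, 405.4 and 391.6 CPM. In MC903 resident libraries 6 to 10 it stood at 107.0, 107.8, 133.0, 171.9 and 106.8 CPM. In bone marrow libraries 11, 13, 14 and 15 it stood at 126.0, 171.3, 141.7 and 211.2 CPM. Every library from MC903-treated mice, resident or bone marrow, lay below every untreated library.

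Tnf fell 3.97-fold in MC903 resident against untreated resident cells (log2 fold change -1.99 ± 0.207, SE; adjusted p = 1.28e-05, edgeR quasi-likelihood test, adjusted over 21014 genes by Benjamini-Hochberg). Against untreated resident cells the bone marrow libraries were 3.07-fold lower (log2 fold change -1.62 ± 0.221; adjusted p = 6.7e-05, edgeR). The MC903 groups were not told apart (bone marrow minus resident 0.37 ± 0.211; adjusted p = 0.372, edgeR). Both falls held in every alternative fit, including that without libraries 7, 8 and 15, where the log2 fold changes were -1.95 and -1.79. In pooled cells, fewer Tnf-expressing cells and less Tnf RNA per cell cannot be told apart, and this holds for every member below.

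**Figure D2:**
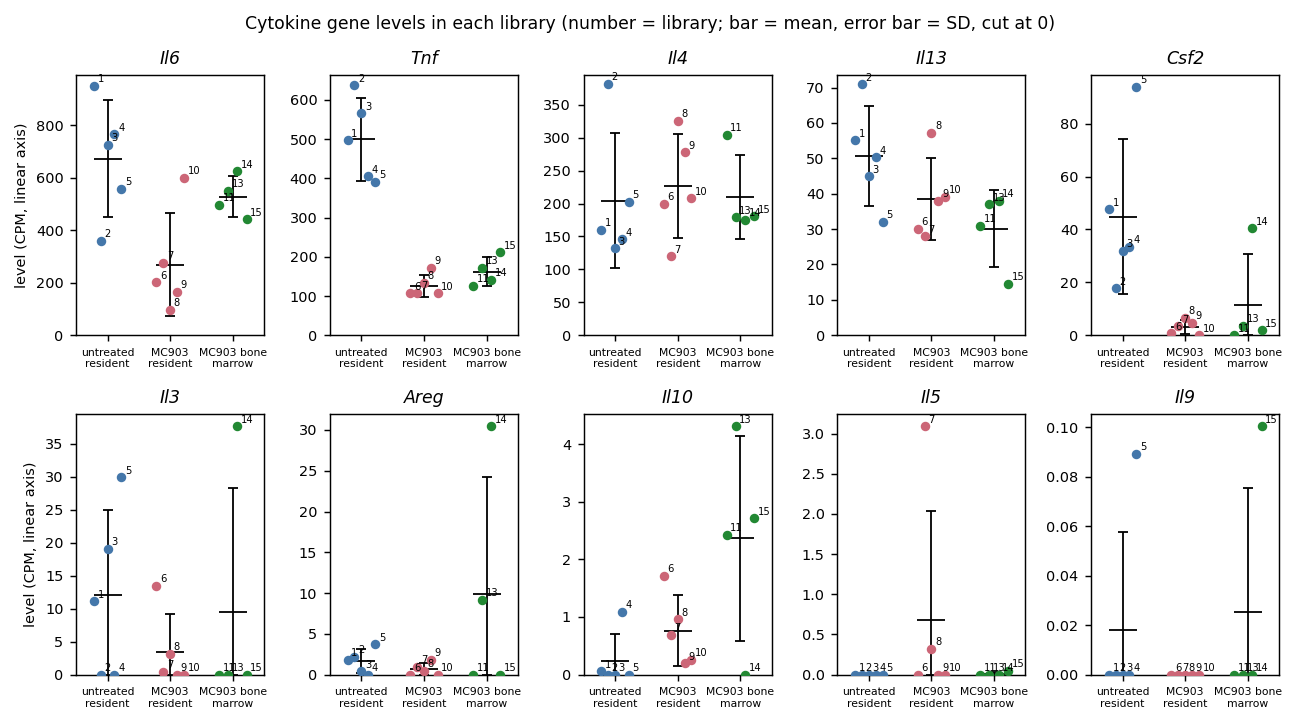
CPM of each cytokine gene (linear axes, one panel per gene) in the 14 libraries, each point numbered by its library, with the mean as a horizontal bar and the SD as error bar, ended at 0. Tnf libraries of untreated mice (391.6 to 637.9 CPM) lie above all others (106.8 to 211.2 CPM), and library 14 stands above its group for Csf2, Il3 and Areg.

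Il6 encodes interleukin 6, an inflammatory cytokine that acts on vessels, B cells and T cells. It lies on the plus strand at chr5:30013114-30019981, and its RefSeq promoter window at chr5:30012864-30013163 holds a match to each of the AP-1 pattern TGANTCA and the C/EBP pattern TTGCNNAA, and 3 each to the NFAT core and the NF-kappa B pattern, which overlap in part.
Il6: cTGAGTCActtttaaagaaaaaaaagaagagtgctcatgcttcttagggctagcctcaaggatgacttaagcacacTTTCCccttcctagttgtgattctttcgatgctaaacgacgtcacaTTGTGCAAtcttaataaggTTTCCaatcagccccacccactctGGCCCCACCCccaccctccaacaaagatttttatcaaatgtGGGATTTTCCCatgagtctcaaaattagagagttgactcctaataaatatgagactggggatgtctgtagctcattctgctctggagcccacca

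In untreated resident libraries 1 to 5, Il6 stood at 949.7, 360.2, 726.0, 766.4 and 557.9 CPM. In MC903 resident libraries 6 to 10 it stood at 201.5, 277.0, 97.81, 165.3 and 599.5 CPM, and in bone marrow libraries 11, 13, 14 and 15 at 498.2, 549.8, 624.2 and 441.7 CPM. Library 10 stood at 599.5 CPM, inside the untreated and the bone marrow range, whereas the other 4 MC903 resident libraries lay below both.

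Il6 was lower in MC903 resident than in untreated resident cells without passing the threshold (log2 fold change -1.32 ± 0.372; adjusted p = 0.0809, edgeR). Leaving out library 10 gave a call in that comparison (-1.84; adjusted p = 0.00107, edgeR) and made the bone marrow cells higher than the MC903 resident cells (1.498; adjusted p = 0.00992, edgeR, against 0.97 ± 0.387 with adjusted p = 0.199 with it). Leaving out library 2 (360.2 CPM) also gave a call between MC903 resident and untreated cells (-1.47; adjusted p = 0.0442, edgeR), and so did DESeq2 (-1.22; adjusted p = 0.0148) and limma with quality weights (-1.63; adjusted p = 0.0157). Bone marrow cells and untreated resident cells were not told apart (-0.35 ± 0.390; adjusted p = 0.685, edgeR).

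Interleukins 4 and 13 share a receptor chain, Il4ra, and are the cytokines most closely tied to atopic inflammation. The genes lie on the minus strand 12.65 kb apart, Il4 at chr11:53602982-53618669 and Il13 at chr11:53631324-53634702. Their promoter windows, at chr11:53618616-53618915 (the upstream of 2 RefSeq starts of Il4) and chr11:53634653-53634952, are shown with their 5 and 4 NFAT cores in capitals among the motifs searched. The core was found in 61.34% of all 32851 promoters searched. The NF-kappa B pattern, found in 50.79% of them, was not found in either window.
Il4: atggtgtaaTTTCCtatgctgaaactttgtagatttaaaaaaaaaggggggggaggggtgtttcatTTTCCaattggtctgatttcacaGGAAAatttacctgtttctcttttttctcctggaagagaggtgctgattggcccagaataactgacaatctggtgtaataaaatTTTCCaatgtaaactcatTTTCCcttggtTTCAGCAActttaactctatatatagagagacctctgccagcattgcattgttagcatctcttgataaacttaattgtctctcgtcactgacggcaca
Il13: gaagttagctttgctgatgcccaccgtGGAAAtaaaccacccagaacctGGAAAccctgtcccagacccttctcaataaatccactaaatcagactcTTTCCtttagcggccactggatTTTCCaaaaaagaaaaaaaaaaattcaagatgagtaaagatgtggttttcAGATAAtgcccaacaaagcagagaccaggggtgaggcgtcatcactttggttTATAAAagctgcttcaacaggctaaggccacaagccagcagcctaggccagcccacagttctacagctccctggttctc

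Il4 stood at 160.4, 382.0, 131.8, 145.6 and 202.4 CPM in untreated resident libraries 1 to 5. It stood at 199.4, 119.8, 326.1, 277.7 and 208.0 CPM in MC903 resident libraries 6 to 10, and at 304.7, 179.1, 175.5 and 180.5 CPM in bone marrow libraries 11, 13, 14 and 15. The 3 ranges overlapped. Between groups the log2 fold change was 0.15 ± 0.290 for MC903 resident minus untreated (adjusted p = 0.913, edgeR), -0.11 ± 0.308 for bone marrow minus MC903 resident (adjusted p = 0.890, edgeR) and 0.04 ± 0.308 for bone marrow minus untreated (adjusted p = 0.966, edgeR), so no difference was detected, and the sign of all 3 turned when certain single libraries were left out.

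Il13 stood at 55.09, 70.88, 44.90, 50.29 and 32.12 CPM in untreated resident libraries 1 to 5. It stood at 30.10, 27.93, 57.16, 37.95 and 39.10 CPM in MC903 resident libraries 6 to 10 and at 30.99, 37.00, 37.92 and 14.61 CPM in bone marrow libraries 11, 13, 14 and 15. The ranges overlapped in all 3 comparisons. None was called: the log2 fold changes were -0.39 ± 0.307 (adjusted p = 0.705), -0.36 ± 0.327 (adjusted p = 0.610) and -0.75 ± 0.330 (adjusted p = 0.189, edgeR), in the order used for Il4. The first ranged from -0.57 to -0.22 and the second from -0.55 to -0.12 with single libraries left out, and the second was -0.036 without libraries 7, 8 and 15. Per length, Il4 exceeded Il13 by 4.01 ± 1.61 times in untreated, 5.75 ± 1.15 in MC903 resident and 7.77 ± 3.74 in bone marrow libraries.

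Csf2 (GM-CSF, a growth factor of granulocytes, macrophages and dendritic cells) lies at chr11:54247271-54249667 on the minus strand, 15.63 kb from Il3 and 522.2 kb from Il5. In untreated resident libraries 1 to 5 it stood at 47.58, 17.76, 31.89, 33.37 and 93.92 CPM. In MC903 resident libraries 6 to 10 it stood at 0.777, 3.38, 6.69, 4.61 and 0.0421 CPM (15, 59, 105, 95 and 1 counts), below every untreated library. In bone marrow libraries 11, 13, 14 and 15 it stood at 0, 3.48, 40.52 and 1.81 CPM, so only library 14 reached the untreated range.

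The log2 fold change of Csf2 between MC903 resident and untreated cells was -3.85 ± 1.413 without passing the threshold (adjusted p = 0.231, edgeR). The call came with limma and quality weights (-4.20; adjusted p = 0.0305) and with edgeR on those 2 groups alone (-3.80; adjusted p = 0.0103). For bone marrow minus MC903 resident it was 1.88 ± 1.357 (adjusted p = 0.509, edgeR), and -0.81 (adjusted p = 0.789, edgeR) without library 14. For bone marrow minus untreated it was -1.97 ± 1.411 (adjusted p = 0.484, edgeR), and -4.66 (adjusted p = 0.110, edgeR) without library 14.

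Il3 (chr11:54265303-54267277, minus strand), a growth factor of mast cells and basophils, was found in some libraries and absent from others of the same group. It stood at 11.13, 0, 19.11, 0 and 29.94 CPM in untreated libraries 1 to 5, at 13.47, 0.458, 3.19, 0 and 0 CPM in MC903 resident libraries 6 to 10, and at 0, 0, 37.67 and 0 CPM in bone marrow libraries 11, 13, 14 and 15. In the libraries at 0 a count of 0 allows 3 counts, which over the 14 libraries is 0.104 to 0.191 CPM. None of the 3 log2 fold changes, -1.81 ± 2.425, 1.45 ± 2.501 and -0.36 ± 2.504, passed the threshold (adjusted p = 0.869, 0.817 and 0.962, edgeR). With single libraries left out the first ranged from -3.54 (without library 6) to -1.13 (without library 5). Library 5 of the untreated group and library 14 of the bone marrow group were the highest of their group for Il3, Csf2 and Areg alike.

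Areg (chr5:91139599-91148432, plus strand) stood at 0 to 3.70 CPM in untreated resident and 0 to 1.84 CPM in MC903 resident libraries. In bone marrow libraries 11, 13, 14 and 15 it stood at 0, 9.18, 30.46 and 0 CPM, with 264 and 714 counts in libraries 13 and 14. The bone marrow libraries thus held both the highest levels and 2 libraries without a count. The log2 fold changes were -1.32 ± 1.681, 3.93 ± 1.889 and 2.61 ± 1.793 in the order above (adjusted p = 0.860, 0.284 and 0.448, edgeR). Without library 14 the latter 2 were 2.25 and 0.92, and with limma 1.98 and 0.79. With single libraries left out, MC903 resident minus untreated ranged from -2.07 (without library 9) to -0.76 (without library 5).

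Il10, an inhibitory cytokine (chr1:131019845-131024974, plus strand), was low throughout. Untreated resident libraries 1 to 5 held 1, 0, 0, 23 and 0 counts, MC903 resident libraries 6 to 10 held 33, 12, 15, 4 and 6, and bone marrow libraries 11, 13, 14 and 15 held 58, 124, 0 and 54. Counts were present in every MC903 resident library and in 3 of 4 bone marrow libraries, up to 4.31 CPM. The log2 fold changes of 1.72 ± 1.730, 1.62 ± 1.788 and 3.34 ± 1.883 did not pass the threshold (adjusted p = 0.797, 0.686 and 0.331, edgeR). Without untreated library 4, which held 23 of that group's counts, the values against untreated cells were 5.499 for MC903 resident and 7.01 for bone marrow cells (adjusted p = 0.239 and 0.0691, edgeR). Limma gave 3.43 for MC903 resident minus untreated and 0.046 for bone marrow minus MC903 resident.

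Il5, which drives eosinophils, and Il9, a growth factor of mast cells and T cells, were at or near 0 and were not tested because they did not pass the filter on low counts. Il5 (chr11:53720794-53725106) had 54 counts in library 7, 5 in library 8, 1 in library 15 and 0 in the other 11. These 3 are the libraries that stood apart by the number of genes with a count. Il9 (chr13:56479277-56482246) had 2 counts in each of libraries 5 and 15 and 0 elsewhere. In library 7 the 6 basophil markers summed to 775.6 CPM, within the 646.3 to 1079 CPM of its group, and the 10 innate lymphoid cell markers to 217.5 CPM, below library 6 of its group at 231.5 CPM. Its eosinophil (54.04 CPM) and fibroblast (35.03 CPM) sums were the highest of the 14 libraries, and its T cell sum (6.93 CPM) the lowest of its group. Their part in the Il5 value was not tested.

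Of the 8 members tested, 1 was called in MC903 resident against untreated resident cells (Tnf, lower), where 2.25% of all genes tested were called. In that comparison 353 of the 473 called genes were lower (1.68% of genes tested), which became 294 of 501 with DESeq2 size factors and 266 of 516 with TMM factors from genes of at least 10 CPM. Of the 8, 0 were called in bone marrow against MC903 resident cells, where 2.27% of genes were called by edgeR; at an unadjusted p under 0.05 it was 1 of 8 (Il6), against 17.7% of genes, and at the adjusted threshold limma called 1 (Il6), where it called 9.86% of all genes, and DESeq2 called 0, where it called 8.58%. In bone marrow against untreated resident cells 1 of 8 was called (Tnf, lower), against 6.87% of genes in either direction and 3.37% lower. At an unadjusted p under 0.05 in edgeR it was 2 of 8 there (Il13 and Tnf), against 21.3% of genes. By the same rule it was 3 of 8 in MC903 resident against untreated cells (Csf2, Il6 and Tnf), against 12.6%. The members' median log2 fold changes were -1.32, 1.21 and -0.35, beside 0.24, -0.28 and -0.14 over all genes tested, and comparisons with a group in common share its libraries. For the counts by other rules given below, DESeq2 called 5.44%, 8.58% and 14.8% of the genes to which it gave an adjusted p in the 3 comparisons, limma called 6.46%, 9.86% and 10.5%, and 12.6%, 17.7% and 21.3% had an unadjusted p under 0.05 in edgeR.

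Tnf and Csf2 were the 2 members whose CPM in MC903 resident libraries did not overlap with untreated libraries, both lower, where 3.2% of all genes tested were lower without overlap. Tnf was the 1 member without overlap between bone marrow and untreated libraries, where 5.27% of genes were lower without overlap. Between the MC903 groups no member was free of overlap, where 8.29% of genes were.

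**Figure D3:**
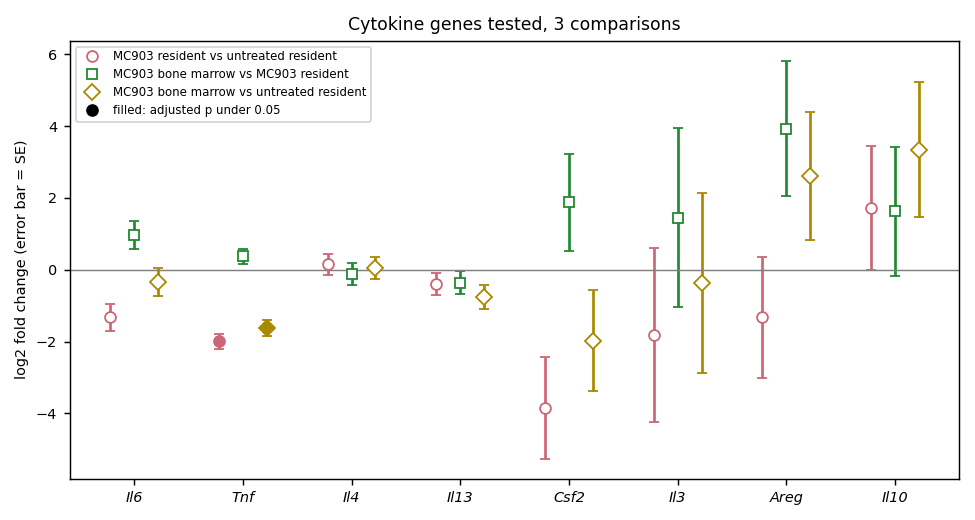
Log2 fold change (points) with its SE (error bars) of the 8 members tested in the 3 comparisons, filled where the adjusted p was under 0.05. Tnf is filled against untreated resident cells in both MC903 groups (-1.99 and -1.62), and Csf2, Il3, Areg and Il10 have SEs of 1.357 to 2.504.

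Promoter windows of 9 members, all but Il10, whose promoter was not analysed here, were searched for 6 short patterns on both strands (the TATA box on the plus strand). The NFAT core GGAAA occurred in 9 of 9, against 61.34% of 32851 promoters of the same length. The NF-kappa B pattern occurred in 6 of 9 (Areg, Csf2, Il3, Il6, Il9 and Tnf), against 50.79%, and was not found in the windows of Il4, Il13 and Il5. Less common patterns were AP-1 in 2 of 9 (7.808% of all), the GATA pattern AGATAA in 3 of 9 (11.18%), the TATA box TATAAA in 3 of 9 (8.319%) and the C/EBP pattern in 4 of 9 (10.8%). The Csf2 window, at chr11:54249850-54250149 (minus strand), is set on a RefSeq start upstream of the gene coordinates given above. Its NF-kappa B match lies 22 bases after that start. Il4 had 2 windows and was counted with a match in either, and its upstream window alone gives the same entries.

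Among 32 tested transcription factors known to act on cytokine genes, 9 were called in MC903 resident against untreated resident cells, 1 higher and 8 lower, where 2.25% of all genes were called, and the list's median log2 fold change was -0.51 beside 0.24 over all genes. Members of the NF-kappa B family fell: Nfkb2 from 203.8 ± 61.8 to 78.1 ± 17.3 CPM (SD, n = 5 and 5; log2 fold change -1.38 ± 0.254, adjusted p = 0.00342, edgeR) and Rel from 204.1 ± 47.5 to 82.6 ± 24.4 CPM (-1.30 ± 0.263, adjusted p = 0.00715, edgeR). The other NF-kappa B genes called were Rela (348.1 ± 45.6 to 147.4 ± 31.2 CPM) and Nfkb1 (423.4 ± 54.8 to 205.6 ± 47.1 CPM), which were named after their values were seen. Without libraries 7, 8 and 15 the calls of Nfkb2 (adjusted p = 0.0676) and Rel (adjusted p = 0.0737) were lost in edgeR, and those of Rela and Nfkb1 stayed.

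Egr1, an immediate early factor induced by growth factor and IgE receptor signalling, fell from 6147 ± 1239 to 2548 ± 1008 CPM (log2 fold change -1.26 ± 0.269, adjusted p = 0.0108, edgeR; 0.179 without libraries 7, 8 and 15, 0.130 without the filter and 0.0501 without library 6). Nfatc1, Junb and Egr3 were the other 3 called lower, calls lost in 6, 6 and 12 alternative fits (adjusted p = 0.198, 0.152 and 0.262 without libraries 7, 8 and 15, edgeR). Gata1, a factor of the mast cell and erythroid lineages, rose from 107.3 ± 6.56 to 185.6 ± 50.4 CPM (0.80 ± 0.199, adjusted p = 0.0348, edgeR), a call lost without library 2, 3 or 10 and without the filter. Gata2, which is required for mast cell identity, stood at 2794 ± 349 and 2036 ± 233 CPM and was not called (adjusted p = 0.291, edgeR).

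Between bone marrow and untreated resident cells 9 of 32 factors were called, all lower, against 6.87% of all genes, with a median of -0.35 beside -0.14. Egr1 stood at 1177 ± 550 CPM in bone marrow cells (SD, n = 4; log2 fold change -2.38 ± 0.304, adjusted p = 3.45e-05, edgeR). Egr3 fell from 407.1 ± 20.7 to 100.6 ± 29.5 CPM (-2.02 ± 0.229, adjusted p = 9.02e-06, edgeR), and Egr2 fell from 665.3 ± 191 to 56.3 ± 54.2 CPM, a call lost in 7 alternative fits. Fosb, Jun, Junb, Rela, Rel and Nfkb2 completed the 9. The call of Jun was lost without the filter (adjusted p = 0.0567, edgeR), and that of Junb with limma (adjusted p = 0.0680) and without libraries 7, 8 and 15 (adjusted p = 0.0639, edgeR).

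Between the 2 MC903 groups 3 of 32 factors were called, against 2.27% of all genes, with a median of 0.15 beside -0.28. Over the comparisons of MC903 resident with untreated, bone marrow with MC903 resident and bone marrow with untreated cells, DESeq2 called 12, 5 and 13 factors and limma 14, 3 and 11. Nfatc1, which encodes a calcium-activated NFAT factor, was higher in bone marrow cells (213.3 ± 29.0 against 99.4 ± 28.7 CPM; log2 fold change 1.10 ± 0.242, adjusted p = 0.0168, edgeR). Egr3 and Egr1 were lower. The call of Nfatc1 was lost without library 6 or 7 and without libraries 7, 8 and 15 (adjusted p = 0.156, edgeR), and that of Egr1 in 10 alternative fits (0.0873 without those 3 libraries).

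**Figure D4:**
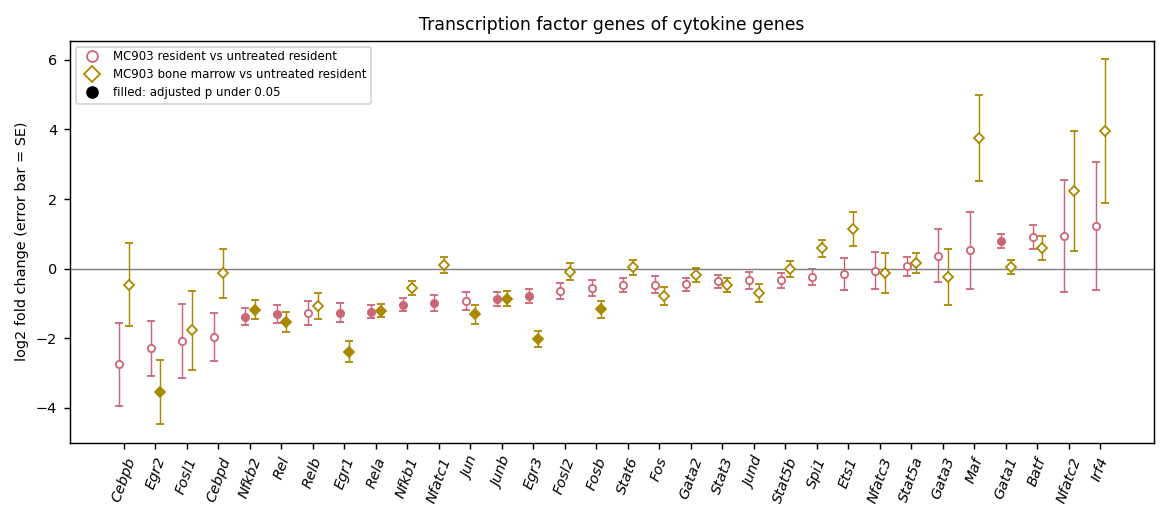
Log2 fold change (points) with its SE (error bars) of the 32 transcription factor genes tested, against untreated resident cells, for MC903 resident (circles) and bone marrow cells (diamonds), filled where the adjusted p was under 0.05. The filled points lie below 0 except that of Gata1 (0.80) in MC903 resident cells.

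Feedback inhibitors of cytokine signalling (16 tested) were called lower for 3 genes in MC903 resident against untreated resident cells, where 1.68% of all genes tested were called lower, with a list median of -0.31 beside 0.24 over all genes. Tnfaip3, which encodes the NF-kappa B inhibitor A20, fell from 2193 ± 611 to 933.5 ± 311 CPM (log2 fold change -1.23 ± 0.255, adjusted p = 0.0091, edgeR). Cish, an inhibitor of STAT5 signalling, fell from 330.8 ± 76.8 to 153.3 ± 43.1 CPM (-1.10 ± 0.218, adjusted p = 0.0059, edgeR). Nfkbia was the third, a call lost in 13 alternative fits. Without libraries 7, 8 and 15 the calls of all 3 were lost (adjusted p = 0.0554 for Cish, 0.120 for Tnfaip3 and 0.191 for Nfkbia, edgeR).

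Bone marrow cells had 3 of the 16 called higher than MC903 resident cells, where 2.27% of all genes were called in either direction (median 0.78 beside -0.28). Tnfaip3 stood at 2054 ± 794 CPM (log2 fold change 1.13 ± 0.266, adjusted p = 0.026, edgeR), Socs1 at 136.5 ± 43.4 against 47.3 ± 19.8 CPM (1.52 ± 0.375, adjusted p = 0.0341, edgeR), and Nfkbie was the third. Each of these 3 calls was lost in 8 or 9 alternative fits (adjusted p = 0.131, 0.112 and 0.0644 without libraries 7, 8 and 15, edgeR). Against untreated cells, Socs1 was higher (lost without library 2, 3, 11 or 13) and Socs4 lower in bone marrow cells (2 of 16, against 6.87% of all genes; median 0.03 beside -0.14). DESeq2 called 4, 3 and 4 feedback genes in the 3 comparisons and limma 4, 5 and 4.

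Genes of AU-rich message decay and stability (15 tested) had 1 call over the 3 comparisons, Zfp36l2, which was lower in MC903 resident than in untreated cells (57.6 ± 13.8 against 128.9 ± 27.6 CPM; log2 fold change -1.16 ± 0.232, adjusted p = 0.00666, edgeR; 0.0935 without libraries 7, 8 and 15). Zfp36, which encodes tristetraprolin, stood at 2491 ± 1026, 2333 ± 543 and 2146 ± 542 CPM in untreated, MC903 resident and bone marrow cells, and no difference was detected. In bone marrow against MC903 resident cells 0 of 15 were called by edgeR, DESeq2 and limma, with 1 at an unadjusted p under 0.05. In bone marrow against untreated cells edgeR and limma called 0 and DESeq2 called 1 (Rc3h1), with 6 at an unadjusted p under 0.05. In MC903 resident against untreated cells DESeq2 called 1 (Zfp36l2) and limma 2 (Zfp36l1 and Zfp36l2), with 5 at an unadjusted p under 0.05. Rc3h1 and Zfp36l1 were named after their values were seen. The shares of all genes called were 2.25%, 2.27% and 6.87%, and the list medians were -0.61, 0.11 and -0.54.

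Of 16 tested receptor genes for the members' cytokines, Il10ra fell from 450.4 ± 90.5 CPM in untreated to 158.5 ± 52.6 CPM in MC903 resident cells (log2 fold change -1.501 ± 0.236, adjusted p = 0.000902, edgeR) and was also lower in bone marrow cells (207.3 ± 60.4 CPM; -1.12 ± 0.251, adjusted p = 0.0074, edgeR). Il4ra, the shared chain for interleukins 4 and 13, rose to 296.7 ± 107 CPM in bone marrow cells from 101.5 ± 39.6 CPM in untreated cells (1.55 ± 0.305, adjusted p = 0.00252, edgeR). It was also called higher than in MC903 resident cells (127.9 ± 19.9 CPM; 1.21 ± 0.303, adjusted p = 0.0383, edgeR), a call lost in 12 alternative fits (adjusted p = 0.192 without libraries 7, 8 and 15, edgeR). These were the 1, 1 and 2 receptor calls of the 3 comparisons, beside 2.25%, 2.27% and 6.87% of all genes, and the list medians were -0.28, 0.08 and -0.28. DESeq2 called 1, 2 and 5 receptor genes and limma 3, 5 and 7. Among these were Il5ra, the interleukin 5 receptor chain, at 36.5 ± 5.26, 34.7 ± 9.54 and 8.86 ± 7.84 CPM in untreated, MC903 resident and bone marrow cells, and Il6ra, the interleukin 6 receptor chain, at 37.4 ± 10.6, 14.6 ± 4.67 and 2.60 ± 4.93 CPM, both named after their values were seen. Both tools called both genes in bone marrow against untreated cells, where edgeR gave adjusted p = 0.142 and 0.0704.

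Other cytokine genes (23 of 37 tested) gave 1, 2 and 5 calls, where 2.25%, 2.27% and 6.87% of all genes were called, with medians of 0.39, 0.31 and 1.33 beside 0.24, -0.28 and -0.14 over all genes. Csf1, a growth factor of macrophages, fell from 810.4 ± 230 CPM in untreated to 366.9 ± 112 CPM in MC903 resident cells (log2 fold change -1.14 ± 0.255, adjusted p = 0.0163, edgeR, lost without library 1, 3, 4, 6, 7 or 8 and, at 0.206, without 7, 8 and 15) and stood at 196.1 ± 72.2 CPM in bone marrow cells (-2.05 ± 0.284 against untreated, adjusted p = 8.06e-05, edgeR). Lif, an interleukin 6 family cytokine, stood at 34.5 ± 13.4, 97.1 ± 52.4 and 464.7 ± 295 CPM in untreated, MC903 resident and bone marrow cells, higher in bone marrow than in untreated cells (3.75 ± 0.489, adjusted p = 0.000135, edgeR) and than in MC903 resident cells (2.25 ± 0.464, adjusted p = 0.0165, edgeR; lost without library 11 or 13 and, at 0.0558, without 7, 8 and 15). Il15 was lower in bone marrow cells than in both other groups (against MC903 resident cells the call was lost in 3 alternative fits, with 0.0610 without 7, 8 and 15), and Tnfsf8 and Tnfsf9 were higher than in untreated cells, calls lost in 6 and 9 alternative fits (adjusted p = 0.0596 and 0.131 without libraries 7, 8 and 15, edgeR). Osm, another interleukin 6 family cytokine, was the most abundant of those named here at 1549 ± 477, 1819 ± 390 and 1923 ± 560 CPM and was not called. DESeq2 called 3, 6 and 6 of these genes and limma 1, 3 and 7.

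Other ligands of the EGF family (8 tested besides Areg) had 0 calls by edgeR, DESeq2 and limma in all 3 comparisons, and 0 at an unadjusted p under 0.05 in edgeR, with medians of 1.02, -1.63 and 0.24. Tumour necrosis factor and amphiregulin are released from the cell surface by Adam17, which stood at 16.3 ± 8.33, 21.1 ± 9.77 and 21.8 ± 7.84 CPM without a call. Of 6 shedding genes tested, Rhbdf2, a partner of Adam17, was called once, where 6.87% of all genes were called, higher in bone marrow than in untreated cells (17.2 ± 3.60 against 1.29 ± 1.90 CPM; log2 fold change 3.73 ± 1.097, adjusted p = 0.0429, edgeR), and that call was lost in 10 alternative fits (0.100 without libraries 7, 8 and 15). In the other comparisons edgeR and DESeq2 called 0 of the 6 and limma 1 and 2, with 2 and 2 at an unadjusted p under 0.05 in edgeR. The 8 tested neighbours of the cytokine genes on chromosome 11 (Kif3a, Rad50, Irf1, Slc22a5, P4ha2, Pdlim4, Acsl6 and Sept8) had 0 calls by edgeR in all 3 comparisons, with 0, 1 and 3 at an unadjusted p under 0.05. DESeq2 called 2 (P4ha2 and Slc22a5) and limma 1 (Slc22a5) in bone marrow against untreated cells, where they called 14.8% and 10.5% of all genes, and 0 in the other comparisons.

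Genes whose pattern over the 14 libraries was most like that of a member were found for Il4, Il6, Il13 and Tnf, the members with at least 10 counts in every library. Likeness was the root mean square difference of centred log2 CPM against 6015 genes of at least 20 CPM. For Tnf these were Tcp11l2 (0.330), Mat2a (0.381) and Dnajb6 (0.389), where the median gene differed by 1.02. For Il6 they were Cish (0.401), Mdm2 (0.431) and Ube2j1 (0.434), with a median of 0.980. Cish is a feedback gene described above. Il4 was nearest to Rpp21 (0.255), Pfdn5 (0.328) and Snrnp27 (0.328), with a median of 0.746, and Il13 to Cdk11b (0.276), Cblb (0.304) and Tal1 (0.322), with a median of 0.759.

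Markers of other cells moved with some of these values and not with others. The basophil protease gene Mcpt8 stood at 979.3, 205.6, 83.48 and 46.2 CPM in bone marrow libraries 11, 13, 14 and 15, against 3.12 to 57.11 CPM in resident libraries, and library 11 also had the highest Il4 of its group. The other 3 bone marrow libraries had Il4 at 175.5 to 180.5 CPM, and in the MC903 resident group library 8 had the highest Il4 (326.1 CPM) with the lowest Mcpt8 (3.12 CPM) and the lowest basophil sum (646.3 CPM). The whole list of 6 basophil genes summed to 766.6 to 1332 CPM (median 1025) in untreated, 646.3 to 1079 (median 850.4) in MC903 resident and 520.9 to 1664 (median 896.4) in bone marrow libraries, with the maximum in library 11. Of its other genes, Cd200r4, Itga2 and Cd200r3 had lower means in bone marrow (129.8, 30.6 and 465.9 CPM) than in untreated libraries (343.4, 107.5 and 545.8 CPM), whereas Prss34 (5.25 against 0.377 CPM) and Clec4a3 (34.3 against 0.0113 CPM) had higher ones. Library 15 held nearly all of the Clec4a3 counts (136.9 CPM), with 0 to 0.256 CPM elsewhere in its group.

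The 11 T cell markers summed to 0.487 to 7.18 CPM in untreated, 6.93 to 50.2 CPM in MC903 resident and 4.10 to 84.14 CPM in bone marrow libraries. Of these 11, 10 had a count in untreated libraries (Cd3e had 0) and 11 in each MC903 group. The maximum, in library 13, was mostly Cd4 (80.18 CPM). In library 14, the highest of the bone marrow group for Csf2, Il3 and Areg, the sum was 49.65 CPM with Cd4 at 0.768 CPM. The T cell receptor complex genes Cd3d (16.81 CPM), Trbc1 (15.36 CPM) and Cd3g (7.68 CPM) were at their highest of the 14 libraries there. The others of that complex were not. Cd3e (2.82 CPM), Trbc2 (1.19 CPM), Trac (0.683 CPM) and Cd247 (0 CPM) were highest in libraries 6, 15, 13 and 9 instead. Il3 and Areg were also at their highest of the 14 in library 14. Csf2 was highest in untreated library 5 (93.92 CPM), where the T cell sum was 1.83 CPM. The 10 innate lymphoid cell markers summed to 90.66 to 141.5 CPM in untreated, 87.65 to 231.5 CPM in MC903 resident and 244.9 to 571.4 CPM in bone marrow libraries, again with the maximum in library 14, which held Calca at 335.8 and Il7r at 157.7 CPM and had 0 counts of Rora and Il17rb.

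Library 15, with its 16214 CPM of macrophage and dendritic cell markers, had the highest Tnf of the bone marrow group (211.2 CPM, 27.16% of the members' per-length sum against 13.22% to 19.99% in the other 3). The fall of Tnf in bone marrow against untreated cells was larger without libraries 7, 8 and 15, as given above. That fit also leaves out MC903 resident libraries 7 and 8, so it cannot show the part of library 15 or of its markers. The eosinophil (9 genes found), neutrophil (9), keratinocyte (11) and fibroblast (8) lists summed to 9.003 to 54.04, 0 to 75.12, 0.0892 to 11.85 and 0.0695 to 35.03 CPM over the 14 libraries. The part of these markers in the cytokine values was not tested.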

How the data were processed

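The authors deposited a table of whole-number read counts per gene for 14 libraries. Per the labels' protocols, cDNA was made from sorted cells with SMART-Seq HT and libraries with Nextera XT. STAR, featureCounts and the build mm10 are listed in the submitters' processing notes, and versions, strand setting and treatment of shared reads are not given in the sources used here. Amplified reads carry no molecular identifiers, so floors of 3 counts cover counting error only.

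Of 55487 genes, 55094 matched GENCODE M21 by versioned identifier and coordinates. Genes were filtered with filterByExpr (21014 left), scaled by TMM, and fitted in 1 model of 3 groups with edgeR 4.0.16 (quasi-likelihood, robust; common dispersion 1.33) in R 4.3.3. P-values were adjusted by Benjamini-Hochberg over all genes tested, and an adjusted p under 0.05 was called. The scripts were tested on simulated data. Alternatives were other size factors, other filters, DESeq2 1.42.0, limma 3.58.1 with quality weights, fits of the compared groups alone, and each library left out, and, added after seeing the data, libraries 7, 8 and 15 left out together.

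The members and gene lists were chosen with earlier results of these data known. From each list the text names every called gene where 6 or fewer were called, otherwise the 3 largest changes per direction. Other called factors were named after their values were seen. Promoters came from RefSeq (GRCm38.p6) and 3′ UTRs from GENCODE M21, the longest of each gene. A marker gene of the T cell list is not reported here and was left out of its sums.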

Additional observations from a re-analysis of the deposited data

Results flagged for a closer look

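In 25 groups of member values, 7 had a library far from the others of its group by Dixon's criterion, which chance meets in about 1 of 20 groups of normally distributed values. Several of these groups were mostly at 0, and the rate for such groups was not computed. For Il3, MC903 resident library 6 stood at 13.47 CPM against 0 to 3.19 CPM in the other 4, and bone marrow library 14 at 37.67 CPM against 0 in the other 3. For Csf2, bone marrow library 14 stood at 40.52 CPM against 0 to 3.48 CPM. Areg was also highest of its group in that library. For Il4, untreated library 2 stood at 382.0 CPM against 131.8 to 202.4 CPM, and bone marrow library 11 at 304.7 CPM against 175.5 to 180.5 CPM. For Il5, MC903 resident library 7 stood at 3.09 CPM against 0 to 0.319 CPM. For Il10, untreated library 4 stood at 1.09 CPM against 0 to 0.0565 CPM.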

How the results depend on the processing

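The fall of Tnf against untreated resident cells kept its direction and its call in all alternative fits, with log2 fold changes of -2.06 to -1.80 in MC903 resident and -1.79 to -1.52 in bone marrow cells. Counts of calls moved more. In MC903 resident against untreated cells it was 1063 with DESeq2, 1357 with limma and 253 without libraries 7, 8 and 15, beside 473, and 312 to 516 with single libraries left out. In bone marrow against MC903 resident cells it was 748 without a filter, 1711 with DESeq2, 2073 with limma and 315 with those groups alone, beside 477, and 302 to 704 with single libraries left out. In bone marrow against untreated cells it was 2707 with DESeq2 and 2212 with limma, beside 1443. Members called in MC903 resident against untreated cells were 2 with DESeq2 and 3 with limma, where 5.44% and 6.46% of all genes were called. They were 2 with those groups alone, where 662 genes were called beside 473, and 1 to 2 with single libraries left out (312 to 516 genes). In bone marrow against MC903 resident cells 1 was called with limma, where 9.86% of all genes were called. With single libraries left out it was 0 to 1 (302 to 704 genes). Signs turned for members that were not called. With limma, Il3 gave 0.12 in MC903 resident minus untreated and -2.40 in bone marrow minus MC903 resident, and Csf2 gave -0.46 in the latter. Il3 in bone marrow minus untreated gave 0.038 without libraries 7, 8 and 15. With single libraries left out, Il4 gave -0.014 to 0.52 in MC903 resident minus untreated, -0.37 to 0.051 in bone marrow minus MC903 resident and -0.20 to 0.40 in bone marrow minus untreated, Il3 from -9.22 to 3.15 in bone marrow minus MC903 resident and from -11.02 to 0.32 in bone marrow minus untreated, and Csf2 from -0.81 to 2.35 in bone marrow minus MC903 resident. The cause was not tested. DESeq2 size factors moved the median of all genes in MC903 resident minus untreated from 0.24 to 0.40, TMM factors from genes of at least 10 CPM to 0.45, and Tnf to -1.85 and -1.80. The filter at a mean of 10 CPM left Il3, Il10 and Areg untested, and Il10 was not tested in MC903 resident against untreated cells fitted alone. No paired analysis was possible because libraries are numbered in a single series and the groups share no numbers. Il3, Areg, Il10, Il5, Il9 and Csf2 each had libraries at 0.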
